A study of Mus musculus with 12 samples.

Results

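The 29 genes described here encode the enzymes that turn glucose into pyruvate and lactate, with their tissue isozymes. They were chosen by name, 1 gene for each known isozyme of each step, out of 47730 features in the deposited tables, and all 29 were found there once. RNA had been sequenced from gastrocnemius with plantaris muscle and from testis of freely fed male C57BL/6J mice aged 5 to 6 months. The groups were wild type (Bckdk+/+) and BckdkM/M, which carries a mutant Bckdk allele on both chromosomes, had been backcrossed for at least 10 generations, and carries the short label KO. The Bckdk product is a mitochondrial kinase that inhibits the oxidation of branched-chain amino acids. Each of the 4 groups held 3 libraries of 3 mice, and letters stand here for the mouse numbers in the column names. Muscle came from wild-type mice A, B and C and from mutant mice D, F and G. Testis came from wild-type A, B and C and from D, E and F, which were labelled mutant.

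Glycolysis splits glucose in the cytosol through 10 reactions, and lactate dehydrogenase then regenerates the NAD+ that the pathway uses. Fast muscle fibres rely on it for rapid ATP and carry muscle forms of several enzymes. Sperm carry forms of their own, some of them made from intronless genes that arose as copies of an mRNA, and in mouse sperm several of these enzymes are bound along the tail.

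The recovered depth was 12852427 to 15795722 reads per library, and the members took 2.88% to 4.22% of the reads in muscle and 1.18% to 1.246% in testis. Bckdk itself checked the labels: it stood at 2214, 2421 and 2627 normalised reads in wild-type muscle and at 14.8, 14.3 and 12.4 in mutant muscle. In testis it stood at 68.0, 73.3 and 71.0 in wild type and at 138, 119 and 114 in the libraries labelled mutant, which goes against the label, so these are called labelled mutant throughout. NeoR, by its name a neomycin resistance sequence, reached 208 to 266 in mutant muscle and 13.1 to 19.9 in testis labelled mutant, against at most 3.85 in any wild-type library. NeoR thus separated the groups in the direction of the label in both tissues. By the column numbers, D and F gave both testes labelled mutant and the mutant muscles with 14.8 and 14.3 of Bckdk. Some libraries stood apart by transcripts of another tissue. The summed level of 11 pancreatic islet genes reached 32588 in F and 30691 in G among mutant muscles, where the remaining muscles had 13574 to 16029. Among testes it reached 19581 in A and 19459 in B, both wild type, where the remaining testes had 10740 to 13958. The markers of fast fibres fitted the muscle label and those of spermatids the testis label, with Acta1 at 226121 or more in every muscle library and Prm1 at 17290 or more in every testis library.

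Between wild-type muscle and wild-type testis, 6 of the 9 steps that have isozymes were led by different genes, by level per kb of merged exon. Of 27 members tested, 15 were higher in muscle and 10 were lower, at an adjusted p below 0.05 in limma. Across all 19994 features tested, 37.3% were called higher in muscle and 50.6% lower, so a call alone says little here and the isozyme that changed is what the comparison shows. All 11 enzymes that muscle is known to use were higher in muscle (Hk2, Gpi1, Pfkm, Aldoa, Tpi1, Gapdh, Pgk1, Pgam2, Eno3, Pkm and Ldha), by a median of 3.61 on the log2(value + 1) scale. All 6 sperm isozymes were lower in muscle (Aldoart1, Aldoart2, Gapdhs, Pgk2, Eno4 and Ldhc), by a median log2 difference of -6.33. Values below are normalised reads, in the order of mice A, B and C for wild types, and fold changes are muscle minus testis with the standard error (SE) of the fit.

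**Figure D1:**
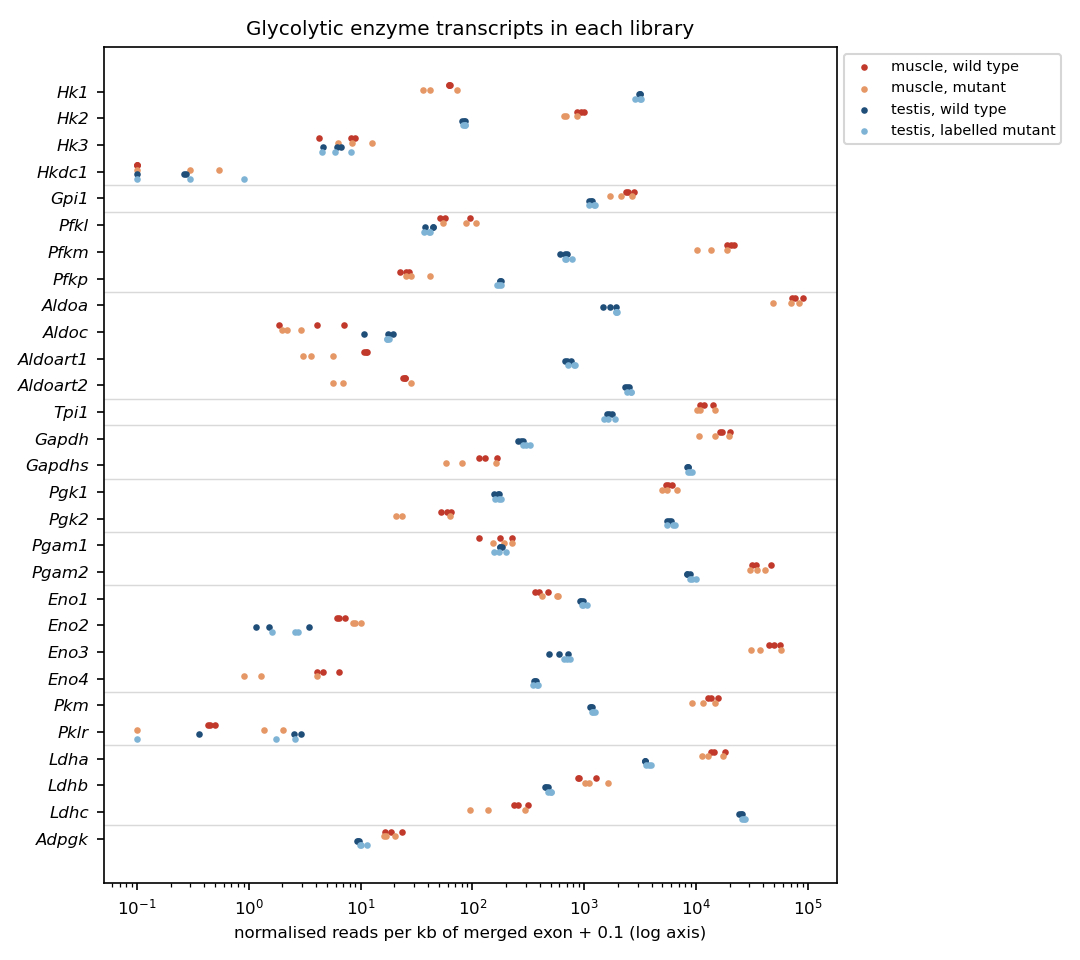
Level of each glycolytic gene per kb of merged exon in each of the 12 libraries (log axis, 0.1 added), grouped by step with grey lines between steps. Points are single libraries, coloured by tissue and genotype group. Genes such as Eno3 and Gapdh lie to the right in muscle, and Pgk2, Ldhc and Gapdhs lie to the right in testis.

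Glucose is first phosphorylated by hexokinase. Hk2, the insulin-responsive form of muscle, stood at 5185, 5965 and 5531 in wild-type muscle and at 507, 506 and 481 in wild-type testis, a log2 difference of 3.48 (SE 0.077, adjusted p = 3.92e-09, limma). Hk1, the general form, of which spermatogenic cells make their own variants, stood at 534, 523 and 526 in muscle and at 27025, 26792 and 26594 in testis, a log2 difference of -5.66 (SE 0.068, adjusted p = 7.17e-10, limma). The groups did not overlap for either gene, and the pair ran in opposite directions. Hk3, a form of white blood cells, stood at 29.6, 32.5 and 15.4 in muscle and at 16.8, 22.5 and 24.2 in testis, and these overlapped (adjusted p = 0.562, limma). Hkdc1, a hexokinase-like gene, had no reads in wild-type muscle and at most 4.14 in any library, and was not tested. Adpgk, which uses ADP in place of ATP, stood at 159 to 223 in muscle and 89.1 to 91.8 in testis (log2 difference 1.03, SE 0.165).

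Phosphofructokinase commits sugar to the pathway. Its muscle form, Pfkm, stood at 63688, 68689 and 72901 in muscle and at 2232, 2041 and 2338 in testis (log2 difference 4.96, SE 0.108, adjusted p = 3.62e-09, limma). Pfkp, the platelet form, ran the other way, at 364, 342 and 300 in muscle and 2388, 2341 and 2367 in testis (log2 difference -2.82, SE 0.087). Both genes separated the tissues without overlap. Pfkl, the liver form, stood at 631, 377 and 343 in muscle and 297, 296 and 251 in testis. Its adjusted p was 0.025 in limma and rose to 0.0640 without testis C, and its call was also lost in limma without trend. Gpi1, the isomerase of the step before, was 15136 to 17990 in muscle and 7101 to 7528 in testis (log2 difference 1.15, SE 0.104).

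Aldolase cleaves the phosphorylated hexose. Aldoa, the muscle form, had the highest level per kb of the 29 in wild-type muscle and stood at 221901, 211471 and 265096 normalised reads there and at 4952, 4247 and 5651 in testis (log2 difference 5.56, SE 0.174, adjusted p = 2.02e-08, limma). Aldoart2 (chr12:55565239-55566896) and Aldoart1 (chr4:72850583-72852634) are intronless copies of Aldoa made in the male germ line. Aldoart2 stood at 39.8, 41.1 and 41.1 in muscle and at 3990, 4193 and 3877 in testis (log2 difference -6.59, SE 0.081). Aldoart1 stood at 21.6, 22.7 and 23.1 in muscle and at 1392, 1553 and 1431 in testis (log2 difference -5.96, SE 0.115). Both copies were thus far above muscle in every testis library. Aldoc, the brain form, was low in both tissues, at 5.69 to 22.7 in muscle and 34.4 to 63.3 in testis, and passed the filter of at least 10 in at least 3 libraries mainly through testis. Tpi1, which interconverts the pair of triose phosphates, stood at 30049 to 39419 in muscle and 4424 to 4841 in testis (log2 difference 2.88, SE 0.126).

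By share, the next steps were led by different genes almost entirely. Gapdh, which makes NADH, stood at 67471, 71012 and 83480 in muscle and at 1132, 1054 and 1175 in testis (log2 difference 6.04, SE 0.111, adjusted p = 1.95e-09, limma). Gapdhs (chr7:30729775-30743681), its sperm counterpart, stood at 184, 210 and 270 in muscle and at 13554, 13347 and 13555 in testis (log2 difference -5.94, SE 0.130, adjusted p = 3.79e-09, limma). The pair differed between tissues by similar amounts in opposite directions. Reads of Gapdh can be split with copies: 89 other annotated genes matched its transcripts at 95% identity or more over at least 150 bases, 83 of them had reads, and their sum was 4.29% of Gapdh in wild-type muscle and 22.7% in wild-type testis. Pgk1 (X chromosome), which makes the first ATP of the pathway, stood at 12667, 12184 and 13751 in muscle and at 381, 351 and 388 in testis (log2 difference 5.10, SE 0.080, adjusted p = 1.12e-09, limma). Pgk2 (chr17:40207015-40208640), an intronless copy used from meiosis on, stood at 104, 84.4 and 96.3 in muscle and at 8919, 9357 and 9647 in testis (log2 difference -6.61, SE 0.092, adjusted p = 8.34e-10, limma).

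Phosphoglycerate mutase was 1 of the steps led by the same gene in both tissues. Pgam2, the muscle form, led in both tissues, at 26332, 29162 and 39234 in muscle and at 7424, 6982 and 6998 in testis (log2 difference 2.13, SE 0.158, adjusted p = 2.95e-06, limma). Pgam1, the general form, stood at 450, 350 and 225 in muscle and at 365, 350 and 348 in testis, which overlapped (log2 difference -0.11, SE 0.224, adjusted p = 0.6504, limma), and its sign changed with the scaling. Pgam1 and Hk3 were the tested members without a call between the wild-type tissues.

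Enolase used 3 genes in testis. Eno3, the muscle form, stood at 78869, 86565 and 98691 in muscle and at 1043, 835 and 1254 in testis (log2 difference 6.41, SE 0.162, adjusted p = 6.92e-09, limma). Eno1, the general form, was the reverse, at 2563, 2136 and 1966 in muscle and at 5238, 5003 and 4879 in testis (log2 difference -1.19, SE 0.106). Eno4, which is needed for the structure of the mouse sperm tail, stood at 10.2, 16.2 and 11.6 in muscle and at 934, 920 and 947 in testis (log2 difference -6.12, SE 0.194). The groups did not overlap for any of the 3 genes. Eno2, the neuronal form, was at 28.2 to 33.5 in muscle and 5.01 to 15.9 in testis, and passed the filter mainly through muscle. Eno1 also has a near-identical copy, Eno1b, with a mean of 29.2 in wild-type muscle and 381 in wild-type testis.

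At the end of the pathway, Pkm, the pyruvate kinase of muscle and most other tissues, stood at 64137, 68121 and 79193 in muscle and at 5869, 5634 and 5735 in testis (log2 difference 3.61, SE 0.127). Pklr, the liver and red cell form, was at most 9.16 in any library and was not tested. Ldha, which favours lactate, stood at 45203, 47623 and 60055 in muscle and at 11679, 11472 and 11516 in testis (log2 difference 2.13, SE 0.148). Ldhb, the heart form, was 1381 to 2013 in muscle and 695 to 746 in testis (log2 difference 1.13, SE 0.142). Ldhc (chr7:46861203-46878142), the lactate dehydrogenase of sperm that neighbours Ldha on chromosome 7, stood at 401, 374 and 496 in muscle and at 39859, 37940 and 40548 in testis (log2 difference -6.55, SE 0.112, adjusted p = 1.54e-09, limma). Per kb of merged exon it had the highest mean of the 29 in wild-type testis.

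Levels of different genes were compared only per kb of merged exon, as the share of each isozyme in the summed level of its step. By this measure 1 gene held over 90% of every step that has isozymes in wild-type muscle. With the longest coding transcript Hk2 held 88.4% of hexokinase in wild-type muscle. Per kb of merged exon Hk2 held 93.1% ± 0.534 (SD, n = 3) of hexokinase there, and Hk1 held 97.2% ± 0.0486 (SD, n = 3) in wild-type testis. Gapdh held 99.2% ± 0.0629 (SD, n = 3) of its step in muscle and 3.13% ± 0.141 (SD, n = 3) in testis, where Gapdhs held 96.9% ± 0.141 (SD, n = 3). Pgk1 held 99.0% ± 0.0948 (SD, n = 3) in muscle, and Pgk2 held 97.2% ± 0.180 (SD, n = 3) in testis. In lactate dehydrogenase, Ldha held 92.2% ± 1.64 (SD, n = 3) in muscle and Ldhc 86.3% ± 0.325 (SD, n = 3) in testis. Ldhal6b, a lactate dehydrogenase-like gene that is not one of the 29, stood at 83.1, 73.6 and 114 in wild-type muscle and at 7830, 7944 and 7830 in wild-type testis. With it in the step, a choice made after seeing the data, it held 15.9% ± 0.524 in testis and Ldhc 72.6% ± 0.718 (SD, n = 3), while Ldha held 91.8% ± 1.59 (SD, n = 3) in muscle.

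Other steps were mixed in testis. Aldolase there was 50.03% ± 3.14 Aldoart2, 35.0% ± 4.14 Aldoa and 14.7% ± 1.06 Aldoart1 (SD, n = 3), against over 99.9% Aldoa in muscle. Enolase was 49.4% ± 3.65 Eno1, 31.4% ± 4.51 Eno3 and 19.1% ± 0.964 Eno4 (SD, n = 3), against 99.2% ± 0.203 Eno3 in muscle. Phosphofructokinase was 75.1% ± 1.47 Pfkm and 20.1% ± 0.871 Pfkp (SD, n = 3), against 99.5% ± 0.157 Pfkm in muscle. Pgam2 held 97.9% ± 0.0184 and Pkm 99.8% ± 0.121 of their steps in testis (SD, n = 3), so that these steps and phosphofructokinase were led by the same gene in both tissues. Leading genes of the mixed steps depended on the length used: with the longest coding transcript, Eno1 held 70.7%, Pfkm 54.2% and Aldoart2 38.3% in testis, and Aldoa then led aldolase. With no length correction Pfkm held 45.4% in testis and Pfkp led. In wild-type muscle the leading gene was the same under all 3 lengths for all 9 steps with isozymes, and in wild-type testis for 7.

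**Figure D2:**
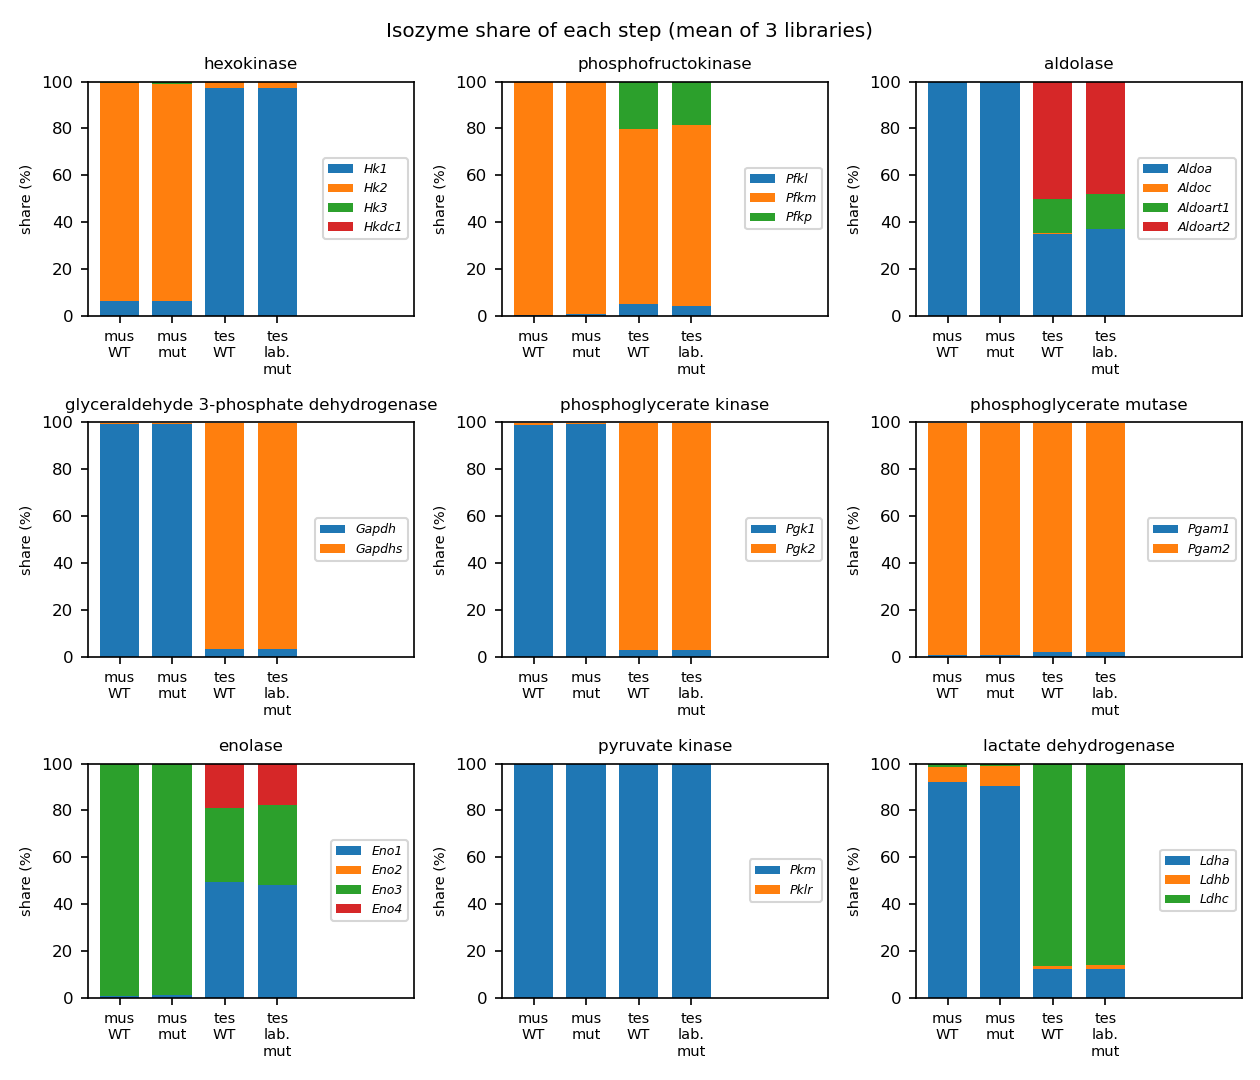
Share in percent of each isozyme in the summed level per kb of merged exon of its step, as the mean of 3 libraries, for wild-type (WT) and mutant (mut) muscle (mus) and for wild-type and labelled mutant (lab. mut) testis (tes). Within a tissue the bars of both genotypes look alike, while Hk1, Gapdhs, Pgk2 and Ldhc fill their steps in testis.

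Summed over isozymes, the steps differed in how far muscle exceeded testis. Per kb of merged exon, wild-type muscle was 26.8-fold above testis for enolase, 23.4-fold for phosphofructokinase, 16.5-fold for aldolase and 12.2-fold for pyruvate kinase. It was 7.39-fold above for triosephosphate isomerase, 4.35-fold for phosphoglycerate mutase, 2.22-fold for glucose 6-phosphate isomerase and 2.09-fold for glyceraldehyde 3-phosphate dehydrogenase. Phosphoglycerate kinase was level, at a ratio of 0.983, and lactate dehydrogenase (0.577, or 0.487 with Ldhal6b) and hexokinase (0.310) were higher in testis. The ratio was sensitive to length: with the longest coding transcript it was 5.20 for glyceraldehyde 3-phosphate dehydrogenase, 16.3 for enolase and 0.179 for hexokinase, and with no length correction it was 14.3 for phosphofructokinase and 1.02 for lactate dehydrogenase. Between tissues the scaling also matters, because the median log2 difference of all features tested was -0.48 with the deposited scaling and -0.28 with TMM (edgeR's trimmed mean of M values), and members' differences are to be read against that median.

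Upstream sequences are shown for 3 sperm isozymes, because they lead their steps in testis and not in muscle, and for Pgam2, because it led its step in both tissues. They are from RefSeq (GRCm38.p6), run 5′ to 3′ on the strand of the gene and end at or before its RefSeq start. For Ldhc and Pgk2 the last 20 bases shown lie inside the GENCODE gene, which begins farther upstream than the RefSeq start. Capitals mark a motif searched on both strands: in Ldhc TGACGT (a core of cyclic AMP response elements), in Pgk2 CCAAT, in Gapdhs TGATGTCA and its reverse complement TGACATCA, and in Pgam2 CAGCTG (an E-box) and TATTTTTA (a MEF2 core).
Ldhc (chr7:46861013-46861222, plus strand): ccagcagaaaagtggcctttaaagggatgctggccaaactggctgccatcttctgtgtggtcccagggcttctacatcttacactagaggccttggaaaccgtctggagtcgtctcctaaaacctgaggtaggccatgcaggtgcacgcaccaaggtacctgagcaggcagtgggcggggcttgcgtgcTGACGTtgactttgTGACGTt
Pgk2 (chr17:40208621-40208859, minus strand): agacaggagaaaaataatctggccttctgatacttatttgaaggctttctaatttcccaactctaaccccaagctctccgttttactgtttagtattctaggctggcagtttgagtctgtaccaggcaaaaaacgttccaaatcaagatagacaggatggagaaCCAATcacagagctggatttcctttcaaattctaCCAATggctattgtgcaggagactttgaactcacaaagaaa
Gapdhs (chr7:30743682-30743931, minus strand): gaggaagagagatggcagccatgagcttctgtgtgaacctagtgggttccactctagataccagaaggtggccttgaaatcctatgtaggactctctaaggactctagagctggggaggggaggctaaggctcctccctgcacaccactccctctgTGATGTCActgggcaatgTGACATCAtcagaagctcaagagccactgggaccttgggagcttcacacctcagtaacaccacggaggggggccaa
Pgam2 (chr11:5803797-5804046, minus strand): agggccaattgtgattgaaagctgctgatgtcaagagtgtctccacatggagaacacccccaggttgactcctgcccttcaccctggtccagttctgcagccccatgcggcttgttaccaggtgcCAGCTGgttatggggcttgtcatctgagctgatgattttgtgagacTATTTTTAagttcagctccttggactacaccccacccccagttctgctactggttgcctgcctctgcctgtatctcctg

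TGACGT occurred 2 times in the Ldhc window, 61 and 47 bases before the RefSeq start, and in 6.47% of all 32851 windows in the RefSeq table. The match at 61 bases crosses the GENCODE start of Ldhc (46861203), and the match at 47 bases lies inside the GENCODE gene. TGATGTCA occurred 2 times before Gapdhs, at 94 and 76 bases, and in 2.93% of all windows, and it also lies, in lower case, before Pgam2. CCAAT or its reverse complement ATTGG occurred 2 times before Pgk2, at 86 and 52 bases, and in 33.8% of all windows. TATTTTTA lay 79 bases and CAGCTG 125 bases before Pgam2, and these occurred in 2.45% and 13.001% of all windows. Of the 28 members with a window (Aldoart1 is named only), 4 held TGACGT (Adpgk, Hk2, Ldha and Ldhc), 3 held TGATGTCA (Gapdhs, Hk1 and Pgam2) and 1 held TATTTTTA (Pgam2). A match describes letters in a window and was not tested against the levels.

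Transcripts of the sperm isozymes were also found in muscle. The 6 sperm isozymes stood in muscle at a median of 1.11%, 1.29% and 1.247% of the wild-type testis mean for A, B and C, at 1.13% in mutant D, and at 0.369% and 0.455% in mutant F and G. Markers of spermatids (10 genes, Prm1 among them) stood in the same libraries at 1.04%, 0.928%, 1.21%, 1.20%, 0.457% and 0.332%. Both sets of values were high in A, B, C and D and low in F and G. Hk1 stood a little higher, at 1.99%, 1.95% and 1.96% in wild-type muscle, 2.33% in D and 1.33% and 1.16% in F and G. Pfkp had 12.7% to 23.7% of its testis level in muscle. The part of spermatid transcripts in the muscle values of the sperm isozymes was not tested.

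**Figure D3:**
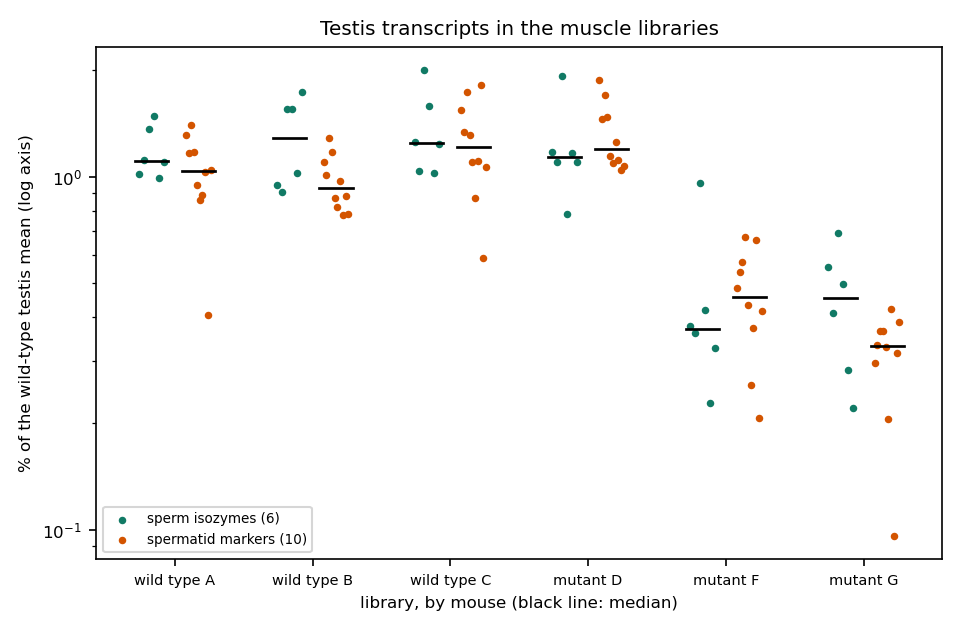
Level of the 6 sperm isozymes (green) and of 10 spermatid markers (orange) in each muscle library as a percent of the wild-type testis mean (log axis). Each point is 1 gene and black lines are medians, which lie near 1% in A, B, C and D and below 0.5% in F and G (A, B and C are wild types).

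The 11 muscle enzymes were present in testis at 0.948% to 48.8% of their wild-type muscle mean. The 12 fast-fibre markers stood in testis at a median of 0.277%, 0.0040% and 0.630% of the wild-type muscle mean for A, B and C. The testes labelled mutant had 0.637%, 0.546% and 0.573%, and Tnni2 alone of the 12 was at 0 in B. Eno3 stood in the same testis libraries at 1.18%, 0.948% and 1.42%, then 1.31%, 1.462% and 1.40%. Aldoa stood at 2.13%, 1.82% and 2.43%, then 2.46%, 2.41% and 2.42%. Both enzymes were lowest in B, where the fast-fibre markers were near 0, and there they still had 835 and 4247 normalised reads. The remaining muscle enzymes ranged in B from 1.43% for Gapdh to 43.4% for Gpi1.

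**Figure D4:**
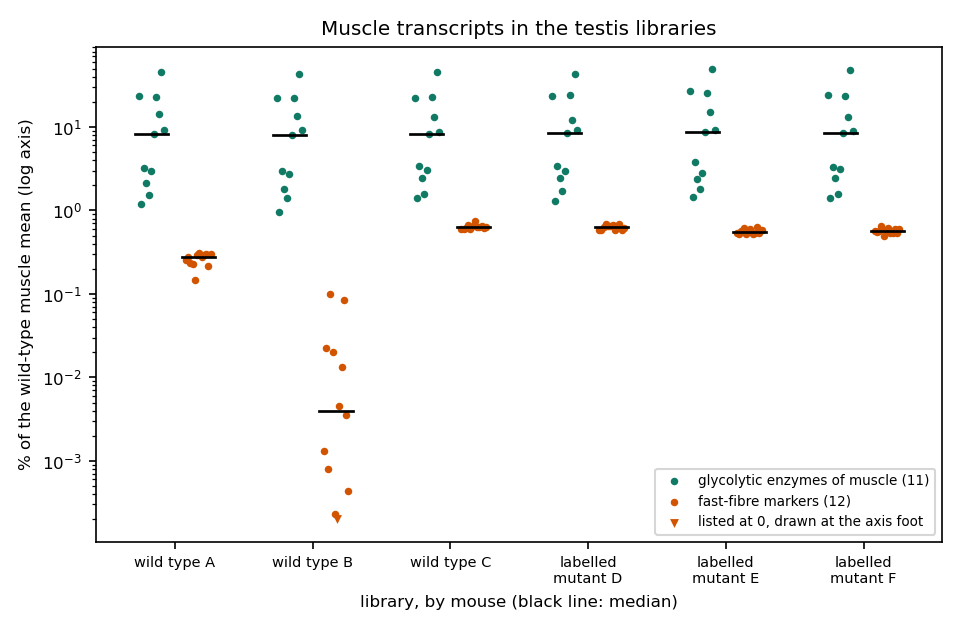
Level of the 11 glycolytic enzymes that muscle uses (green) and of 12 fast-fibre markers (orange) in each testis library as a percent of the wild-type muscle mean (log axis). Each point is 1 gene and black lines are medians. The enzyme median stays between 7.99% and 8.82%, while the marker median falls to 0.0040% in wild-type B.

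The mutant genotype was then set against wild type within muscle. None of the 26 members tested passed an adjusted p of 0.05 in limma, where 0.0369% of the 16246 features tested did, and edgeR and DESeq2 on the recovered reads also called 0 members. At an unadjusted p below 0.05 there were 5 members, against 9.52% of all features. Means were higher in mutants for 7 members and lower for 19, where 44.5% of all features had a higher mean, and the median log2 change of the members was -0.26 against -0.04 over all features. Means counted as higher or lower, here and below, are those of log2(value + 1). On that scale all 11 muscle enzymes and all 6 sperm isozymes had lower means, with medians of -0.28 and -1.04. Higher means were found for 7 of the 9 other isozymes tested, with a median of 0.30. The 3 mutants were not alike. Mutant F lay below all wild types for 16 of 26 members and G for 18, but D for 3, and D lay above all wild types for 8. Without F and G, the mutants with more islet transcripts, the median of the members was 0.17, with 21 means higher and 5 lower.

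The muscle enzymes with the smallest p were Pfkm and Hk2. Pfkm stood at 63688, 68689 and 72901 in wild type and at 63425, 45154 and 34143 in mutants D, F and G, a log2 change of -0.57 (SE 0.269, adjusted p = 0.527, limma). Hk2 stood at 5185, 5965 and 5531 in wild type and at 5157, 3912 and 4137 in mutants, a log2 change of -0.35 (SE 0.151, adjusted p = 0.519, limma). For both genes the groups did not overlap, though D lay just under the lowest wild type. Non-overlap held for 4 of 26 members (Hk2, Pfkm and Aldoart1 lower, Eno2 higher), against 8.85% of all features lower and 5.11% higher without overlap. Aldoa stood at 243894, 203775 and 140750 in D, F and G, Gapdh at 81928, 61158 and 43613, Eno3 at 100083, 65544 and 54182, and Pkm at 73241, 57506 and 46364. For each of these 4 enzymes D fell within or above the wild types, F lay below them and G lay lowest. Pgk1 (15267, 11020 and 12338) and Tpi1 (40620, 30051 and 28050) gave log2 changes of -0.01 (SE 0.174) and -0.06 (SE 0.223).

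The median log2 difference of the 11 muscle enzymes from the wild-type mean was 0.15 in D, -0.26 in F and -0.57 in G, against -0.13, -0.05 and 0.17 for the wild types A, B and C. The 12 fast-fibre markers had -0.12, -0.12 and 0.20 in the wild types and 0.06 in D, -0.08 in F and -0.52 in G, so that G alone lay below the wild types. Their summed level ran from 2840570 to 3541850 in wild type and from 1946180 to 3122880 in mutants. The 10 adipocyte markers were highest in G, with a sum of 129421 against 20444 to 64335 in wild type. Slow-fibre markers (8 genes) summed to 1857, 8803 and 2786 in the wild types and to 6564, 8246 and 8750 in mutants. Median differences of 5 red blood cell genes were 0.57, 0.43 and 0.96 and those of 6 tendon genes 0.59, 0.94 and 0.58 in D, F and G, above all wild types. Those of 8 pancreatic acinar genes, 0.82, 0.61 and 1.10, were also above all wild types. Mitochondrial transcripts made up 11.5% of the reads in G and 7.65% to 8.21% in the other muscles. None of the fast-fibre, slow-fibre and adipocyte markers was at 0 throughout the muscle groups, and their part in the values of the enzymes was not tested. In bulk tissue, fewer cells of a type and less RNA per cell cannot be told apart.

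**Figure D5:**
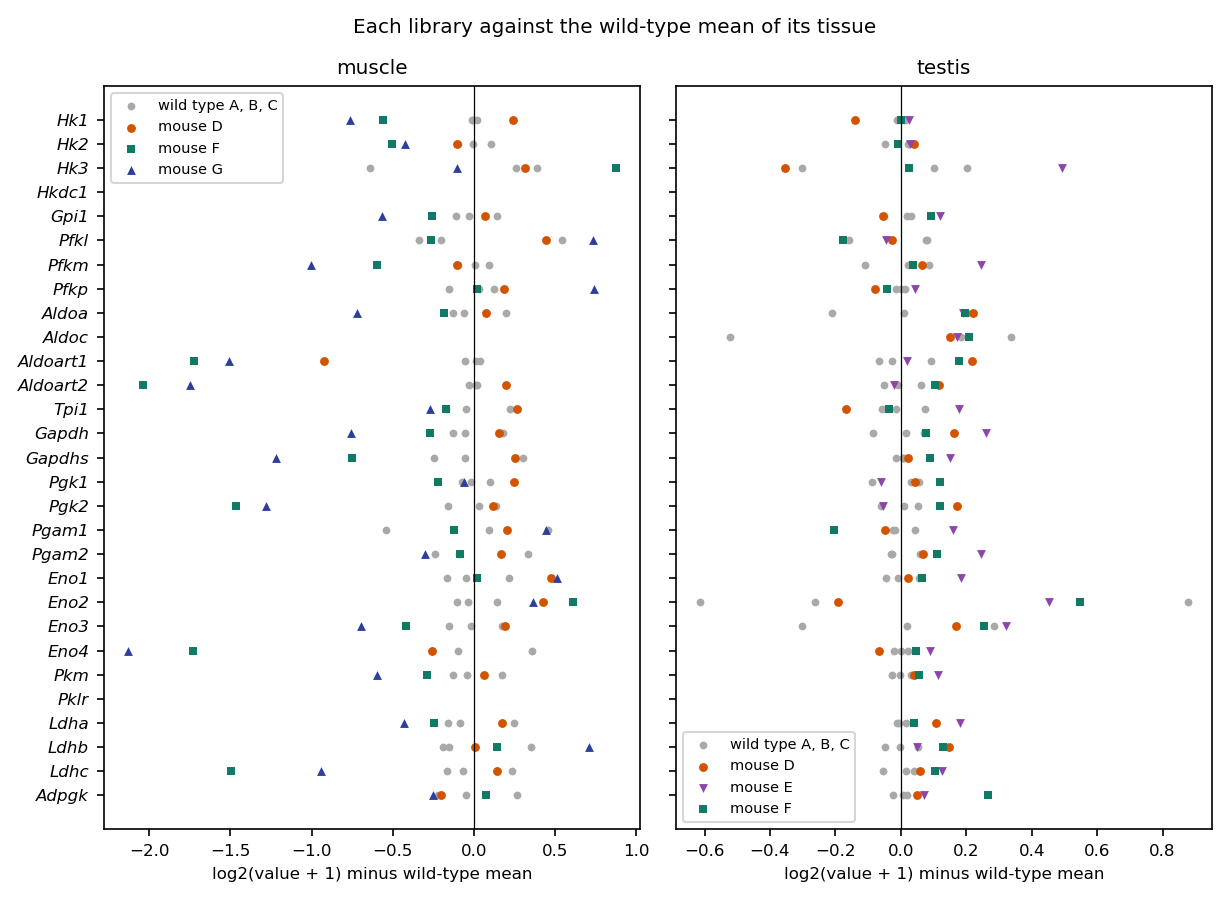
Difference of each library from the wild-type mean of its tissue, on the log2(value + 1) scale, for each member tested, in muscle (left) and testis (right, with a narrower axis). Grey points are wild types and coloured symbols are mutants or, in testis, libraries labelled mutant. In muscle D lies near the wild types while F and G lie to the left for muscle and sperm isozymes.

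The largest changes in muscle were in the sperm isozymes, at low levels. Aldoart1 stood at 21.6, 22.7 and 23.1 in wild-type muscle and at 11.4, 6.11 and 7.25 in D, F and G, a log2 change of -1.38 (SE 0.432, adjusted p = 0.519, limma). All 3 mutants were below all wild types, and with all 12 libraries in 1 model Aldoart1 fell by 1.38 with an adjusted p of 0.00963 in limma, over a range of 0.00963 to 1.00 across its alternatives. Aldoart2 stood at 39.8, 41.1 and 41.1 in wild type and at 46.8, 9.17 and 11.4 in mutants (log2 change -1.20, SE 0.522). Pgk2 stood at 104, 84.4 and 96.3 and then at 103, 33.6 and 38.3 (log2 change -0.87, SE 0.370). Ldhc stood at 401, 374 and 496 and then at 463, 149 and 219 (log2 change -0.77, SE 0.328). For these 3 genes D lay among or above the wild types and F and G far below them. Eno4 stood at 10.2, 16.2 and 11.6 and then at 10.3, 3.06 and 2.07 (log2 change -1.37, SE 0.645). Aldoart1 and Eno4 were at 10 or more in all 3 wild-type muscles but in only 1 mutant muscle. These 2 genes passed the filter mainly through wild type, which leans toward a fall.

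Leaving out D changed these calls: 5 members then passed the threshold in limma, all lower, namely Aldoart2 (-1.89, adjusted p = 0.0264), Pgk2 (-1.37, adjusted p = 0.0259), Ldhc (-1.22, adjusted p = 0.0210), Gapdhs (-0.99, adjusted p = 0.0473) and Hk1 (-0.66, adjusted p = 0.0448), and 497 of all features were called in place of 6. The spermatid markers had median differences from the wild-type mean of 0.30 in D, -1.25 in F and -1.76 in G, beside 0.13, -1.61 and -1.39 for the 6 sperm isozymes. With F and G left out and D alone kept, Aldoart2, Pgk2 and Ldhc had log2 changes of 0.20, 0.12 and 0.14.

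Among the isozymes that are minor in muscle, Eno2 stood at 29.6, 33.5 and 28.2 in wild type and at 41.1, 46.9 and 39.4 in mutants, a log2 change of 0.47 (SE 0.274, adjusted p = 0.567, limma), with no overlap. Eno1 stood at 2563, 2136 and 1966 in wild type and at 3070, 2236 and 3146 in mutants, a log2 change of 0.33 (SE 0.168, adjusted p = 0.537, limma), with F among the wild types. Ldhb reached 2583 in G and 1586 and 1742 in D and F, which lay within the wild-type span of 1381 to 2013. As shares, Hk2 held 92.6% ± 1.47, Gapdh 99.4% ± 0.153, Eno3 98.7% ± 0.471 and Ldha 90.3% ± 3.44 of their steps in mutant muscle (SD, n = 3), each overlapping with wild type. The share of Pgk2 was 1.01% ± 0.0948 in wild-type and 0.588% ± 0.287 in mutant muscle (SD, n = 3), without overlap, D lying just under the wild types. The shares of Aldoart1 (0.0138% ± 0.00144 and 0.00606% ± 0.00160) and Eno4 (0.00972% ± 0.00252 and 0.00418% ± 0.00235) were also lower without overlap, and those of Pfkp (0.123% ± 0.0197 and 0.246% ± 0.137), Aldoa, Pgk1 and Eno2 were higher (SD, n = 3). Shares within a step are complementary, so the rise of Pgk1 is the fall of Pgk2, and the rise of Aldoa is the fall of the other aldolases.

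In testis the differences between the groups were small. None of the 27 members tested passed the threshold in limma, where 0.0205% of 19543 features did, and edgeR and DESeq2 also called 0 members. Means were higher in the libraries labelled mutant for 22 members and lower for 5, where 59.6% of all features had a higher mean, with a median log2 change of 0.09 against 0.03 over all features. At an unadjusted p below 0.05 there were 5 members, against 7.09% of all features, and with median of ratios or TMM scaling within testis there were 0. Groups did not overlap for 7 members, all higher (Adpgk, Gapdh, Gapdhs, Pgam2, Pkm, Ldha and Ldhc), against 9.72% of all features that were higher without overlap. Non-overlap was taken with the deposited scaling only, where the libraries labelled mutant stood higher as a whole. The median log2 difference of all features from the wild-type mean was 0.046, 0.030 and 0.040 in D, E and F. It was 0.002, -0.004 and 0.009 in wild types A, B and C.

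Pgam2 stood at 7424, 6982 and 6998 in wild-type testis and at 7474, 8452 and 7693 in the testes labelled mutant (D, E and F), a log2 change of 0.14 (SE 0.056, adjusted p = 0.696, limma). Gapdh stood at 1132, 1054 and 1175 and then at 1253, 1341 and 1180 (log2 change 0.17, SE 0.070, adjusted p = 0.696, limma). Both were higher in every library labelled mutant, by a narrow margin in D for Pgam2 and in F for Gapdh. Ldha stood at 11679, 11472 and 11516 and then at 12440, 13109 and 11890 (log2 change 0.11, SE 0.048). Ldhc stood at 39859, 37940 and 40548 and then at 41051, 43043 and 42355 (log2 change 0.10, SE 0.043). Both lactate dehydrogenases were above all wild types in each library labelled mutant. Aldoa stood at 4952, 4247 and 5651 and then at 5724, 5612 and 5634 (log2 change 0.20, SE 0.082). Eno3 stood at 1043, 835 and 1254 and then at 1156, 1287 and 1228 (log2 change 0.25, SE 0.117). For Aldoa and Eno3 the groups overlapped, the lowest value being wild-type B, the library with 292 summed fast-fibre reads against 8117 to 19474 in the others; the part of those reads was not tested.

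The other sperm isozymes moved little in testis. Gapdhs stood at 13554, 13347 and 13555 in wild type and at 13692, 14954 and 14356 in those labelled mutant, with a log2 change of 0.09 (SE 0.046). Pgk2 was 8919 to 9647 and then 8965 to 10480, Aldoart1 1392 to 1553 and then 1476 to 1696, Aldoart2 3877 to 4193 and then 3964 to 4352, and Eno4 920 to 947 and then 892 to 994. Gapdhs and Ldhc had groups that did not overlap, and the other 4 sperm isozymes overlapped. The 95% interval of the log2 change was -0.01 to 0.19 for Gapdhs, -0.05 to 0.21 for Pgk2 and 0.00 to 0.19 for Ldhc, so that increases above 0.21 on the log2 scale lay outside it for these 3. As shares of their steps in testis, Eno4 went from 19.1% ± 0.964 to 17.8% ± 0.306 and Pgam1 from 2.06% ± 0.0184 to 1.84% ± 0.153 (SD, n = 3), lower without overlap, and the share of Pgam2 was higher by the same margin. The 10 spermatid markers had a median difference of 0.13, 0.01 and 0.15 in D, E and F, and the 6 sperm isozymes had 0.09, 0.05 and 0.10.

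The change in muscle was tested against the change in testis by the interaction of genotype and tissue over 14677 features. None of 26 members passed in limma, where 0.0136% of all features did. Aldoart1 had the smallest p, with a difference of -1.52 (SE 0.260, adjusted p = 0.228, limma), that is 22.5 ± 0.769 and 8.26 ± 2.79 in muscle and 1459 ± 83.8 and 1606 ± 116 in testis for the wild-type libraries and those labelled mutant (SD, n = 3). DESeq2 on the recovered reads called Aldoart1 alone among the members (adjusted p = 0.0252, range 0.000147 to 1.00 over its alternatives). At an unadjusted p below 0.05 there were 6 members, against 8.69% of all features. Next came Eno4 (-1.40, SE 0.516), Pfkm (-0.68, SE 0.261), Hk2 (-0.37, SE 0.148), Pgk2 (-0.95, SE 0.419) and Aldoart2 (-1.26, SE 0.571), none called, with adjusted p = 0.574 each in limma. Without muscle D, 10 members were called, each with a lower genotype difference in muscle than in testis, where 951 of all 14482 features were called. Aldoart1 and Eno4 passed the filter in muscle mainly through wild type, and without D only through it.

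In the libraries labelled mutant the contrast between tissues was drawn again. Of 27 members, 15 were higher in muscle and 10 lower, against 36.3% and 49.7% of the 20021 features tested. The log2 differences stood beside those of the wild types at 5.85 and 6.41 for Eno3, 5.58 and 6.04 for Gapdh, 5.06 and 5.10 for Pgk1, 4.27 and 4.96 for Pfkm and 3.11 and 3.48 for Hk2. For the sperm isozymes they were -7.56 and -6.61 for Pgk2, -7.41 and -6.55 for Ldhc, -6.60 and -5.94 for Gapdhs, -7.85 and -6.59 for Aldoart2, -7.48 and -5.96 for Aldoart1 and -7.51 and -6.12 for Eno4. The change of these differences with genotype is the interaction above. In mutant muscle Aldoart1, Aldoart2, Eno4 and Aldoc had fewer than 3 libraries at 10 normalised reads, and these passed the filter through testis, so that their calls were bound to differ.

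A further 40 genes of glucose uptake, glycolytic control and pyruvate use were taken from a list. In muscle 0 of 38 tested were called, 11 means being higher, where 44.5% of all features had a higher mean, and 27 lower, with a median log2 change of -0.19. Tigar, a phosphatase that lowers glycolytic flux, stood at 3013, 3154 and 3308 in wild type and at 2511, 1930 and 1658 in mutants (log2 change -0.66, SE 0.161, adjusted p = 0.519, limma). Pfkfb3, whose product makes the activator of phosphofructokinase, stood at 12181, 20222 and 16520 and then at 10926, 7306 and 8660 (log2 change -0.85, SE 0.221, adjusted p = 0.519, limma). Both were below every wild type in all 3 mutants, D included. In testis 0 of 38 were called, 29 means being higher, where 59.6% of all features had a higher mean, and 9 lower, with a median of 0.05, and the smallest p values were those of Pck1 (log2 change 1.40, SE 0.437) and Mpc2 (0.18, SE 0.076). For the interaction 0 of 37 were called.

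Between wild-type tissues 26 of 38 of these genes were higher in muscle and 11 lower, where 37.3% and 50.6% of all features were. Slc2a3, a glucose transporter, stood at 362, 391.7 and 367 in muscle and at 17235, 17470 and 17651 in testis (log2 difference -5.54, SE 0.069). Pdha2, the testis form of a pyruvate dehydrogenase subunit, stood at 19.4, 17.3 and 17.97 in muscle and at 2272, 2320 and 2287 in testis (log2 difference -6.90, SE 0.106). Fbp1, a gluconeogenic phosphatase, gave -6.59 (SE 0.118), and Gpd1, which passes reducing power to glycerol phosphate, gave 5.24 (SE 0.096). In the libraries labelled mutant 25 were higher in muscle and 11 lower, where 36.3% and 49.7% of all features were, the smallest p values being those of Mpc1 (4.42), Slc2a4 (6.62), Pdha1 (5.83) and Pdk3 (-5.36).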

How the data were processed

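The authors deposited a table of signal values, read counts divided by a size factor per library, for 47730 features, and a table of regularised log2 (rlog) values for 27384 features. The values were whole multiples of a step for 100% of entries within 0.001, which gave the reads. Per the submitters' processing notes the build was GRCm38.p4 and the tools included HTSeq 0.11.2, DESeq2 1.46.0, Picard 1.119, HISAT2 2.1.0 and fastp 0.23.4; strand handling is not given in the sources used here. Positions are from GENCODE M21. In testis D 26 values had become dates and were left out, none of them a member. On log2(value + 1), two-sided limma 3.58.1 under R 4.3.3 (lmFit, then eBayes with trend) tested features with at least 10 in at least 3 libraries, with Benjamini-Hochberg adjustment over all of them at 0.05. On simulated counts with planted log2 changes of 1.5 and 2, it recovered 96% to 100% of them per comparison and called 9 to 25 unplanted features. Smaller changes and genes at low levels were not planted, so recovery of such changes is not known. Each simulated comparison held 100 planted changes of each size, which eases the adjusted threshold, and genes were drawn independently. Recovery is thus also not known where few features change or where mutants differ among themselves. An exact permutation test of 3 against 3 cannot go below 0.1. All members are accounted for, and those with a call, the smallest p or an isozyme contrast have values per library. edgeR 4.0.16 and DESeq2 1.42.0 on the recovered reads, other scalings, filters, pseudocounts of 0.5 and 8, and leaving out libraries were alternatives. Members, lists and tests were chosen with earlier results of these data known. Copies were found with BLAST 2.17.0+. Mice A, B, C, D and F gave both tissues by the numbers in the column names, so mouse pairs those libraries; the deviations of the paired libraries correlated at -0.036 to 0.0085 over 14677 features.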

Additional observations from a re-analysis of the deposited data

How the results depend on the processing

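Counts of called members kept their side for most alternatives. In muscle the count of 0 became 1 with all 12 libraries in 1 model, and over the fits that left out 1 library it ran from 0 to 5, the highest without mutant D. For the interaction it became 1 with DESeq2 and ran from 0 to 10 over left-out libraries, again highest without muscle D. In testis it was 0 under every alternative run. Between wild-type tissues 14 or 15 members were higher and 9 or 10 lower under every alternative, and the same ranges held in the libraries labelled mutant. Over all features, calls ran from 3 to 497 in muscle, 0 to 10 in testis and 1 to 951 for the interaction. Without the libraries with more islet transcripts, 1 mutant muscle and 1 wild-type testis library are kept, and many directions turned. In muscle 21 of 26 members then had positive log2 changes, in place of 7. In the interaction 17 of 25 were positive in place of 7 of 26, and in testis 19 of 26 in place of 22 of 27. Among the members with the smallest p, followed singly, Pgk2 (0.12), Ldhc (0.14) and Aldoart2 (0.20) turned in muscle. Eno3 (-0.037) turned in testis, and Pgk2 (0.093) and Aldoart2 (0.078) turned in the interaction. Pgam1 turned between wild-type tissues with TMM (0.088), edgeR (0.16), DESeq2 (0.038) and without muscle C, over a range of -0.34 to 0.16 for left-out libraries. With mouse as a replicate block the interaction called 0 members, and the tissue contrasts called 15 higher and 10 lower in each genotype, so the pairing changed no count of called members. No paired analysis was possible within a tissue because its groups hold different mice and the columns carry no replicate numbers of the labels. Low counts limit precision: Eno4 stood at 3.06 and 2.07 in mutant muscle F and G, and Hkdc1 and Pklr were too low to test.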

Other observations

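Besides Gapdh, 8 members had near-identical copies elsewhere: Eno1 and Ldha 3 each, Pgk1 2, and Gpi1, Tpi1, Pgam1, Pkm and Ldhb 1 each. The summed copies of Eno1 were 1.455% of Eno1 in wild-type muscle and 9.78% in wild-type testis, and those of each of the other 7 were at most 3.11% in any group. For Aldoart1, Aldoart2, Gapdhs, Pgk2, Eno4 and Ldhc no such copy was found. Annotated genes overlap 13 members, nearly all on the opposite strand: Hk1, Hk2, Hk3, Adpgk, Gpi1, Pfkm, Pfkp, Aldoa, Tpi1, Gapdh, Gapdhs, Eno4 and Pklr, and for Pfkm 1 of 2 lies on the same strand. Without strand the reads of overlapping genes cannot be told apart.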
